A study of Drosophila melanogaster with 6 samples.

Results

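Chitin, the fibrous sugar polymer of insect cuticle and of the tracheal and gut linings, is built in a short series of steps. Of that series, 7 genes were followed in *Drosophila* embryos, wild type and mutant for the FoxA factor Fork head (Fkh). The genes were Gfat1 and Gfat2, which encode the enzyme that commits fructose-6-phosphate to amino sugars, mmy, which encodes the enzyme that makes UDP-N-acetylglucosamine (UDP-GlcNAc), the chitin synthase genes kkv and Chs2, and knk and rtv, whose products are needed at the cell surface for ordered chitin. They were chosen by name, through every probe set whose annotated symbol, brought to current symbols, was one of these. Of the 7 genes, 6 were measured, with 7 probe sets among the 18769 on the array. No probe set was named for rtv, which was not analysed here.

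The arrays compared 3 independent collections of wild type embryos (strain Oregon R) with 3 independent collections of fkh[6] mutant embryos, which the labels also give as strain Oregon R. All were whole embryos, labelled as stage 11, aged at 25 C and passed through a COPAS embryo sorter. Each collection was hybridized to 1 Affymetrix array. Whether the groups were of matched age within that label was not tested. The study describes its fkh mutant embryos as loss-of-function, which would remove Fkh function from all tissues and was not checked here. Their sorting is not described further for the arrays. RNA of all cell types was pooled, so that fewer cells of a type and less RNA per cell cannot be told apart. Values are log2 values that the authors made with RMA, a method that corrects background, equalizes the intensity distribution of the arrays and merges the probes of a probe set into one value.

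In insects, glucose is carried through fructose-6-phosphate, glucosamine-6-phosphate and N-acetylglucosamine phosphates to UDP-GlcNAc, the sugar donor of chitin synthase. The synthase sits in the apical membrane and extrudes the growing chain. In *Drosophila*, kkv serves ectodermal epithelia such as epidermis and trachea, Chs2 serves the gut, where chitin is part of the peritrophic matrix, and embryos without kkv, mmy, knk or rtv have defective tracheal tubes and cuticle.

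Chitin synthesis genes did not move as one group. Transcripts of kkv and knk were 5.65-fold and 4.81-fold higher in fkh embryos, those of mmy were 1.44-fold higher, those of Chs2 were 2.68-fold lower, and those of Gfat2 did not pass the test. Gfat1 was higher by an amount that depended on its probe set, 13.2-fold in one, 1.70-fold in the other and 4.74-fold in their mean. Calls required an adjusted p under 0.05 (limma, Benjamini-Hochberg over all probe sets) and a fold change over 1.4, with the probe set of the highest mean over all 6 arrays standing for a gene. By this rule 4 of the 6 measured genes were higher and 1 was lower, where 7.80% of all genes were called higher and 7.89% lower. In each of these 5 genes the groups were fully apart. Of all genes, 16.6% had every fkh array above the wild type arrays and 27.5% had every one below them. The median log2 fold change of the 6 genes was 1.4, with Gfat1 at its 13.2-fold probe set, and that of all genes was -0.07. With the 1.70-fold probe set of Gfat1 the median of the 6 genes would be lower. Without pooling of the spread across probe sets, only Gfat1 and kkv kept the call among the 4 higher genes, so that 2 were called higher.

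**Figure D1:**
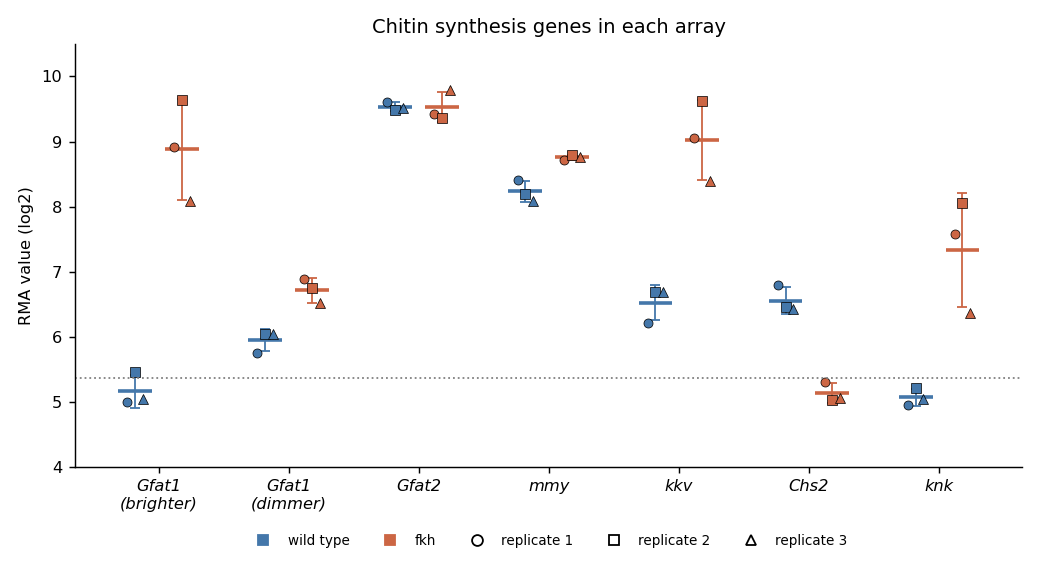
RMA values (log2, vertical axis) of the 7 member probe sets in 3 wild type (blue) and 3 fkh (orange) arrays, with symbols for replicates, horizontal bars for group means and error bars for SD. The dotted line is the median of all probe sets in wild type, 5.36. The groups are apart in every probe set except that of Gfat2.

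The Gfat genes encode the enzyme of the first and rate-limiting step of the route, the transfer of an amino group from glutamine to fructose-6-phosphate. The probe set of Gfat1 with the higher mean over all 6 arrays, called the brighter one here, was at 4.99, 5.45 and 5.04 in the 3 wild type arrays and at 8.91, 9.64 and 8.09 in the 3 fkh arrays (log2 values of replicates 1, 2 and 3). The fkh arrays all lay above the wild type arrays, and the lowest of them exceeded the highest wild type array by 2.64 in log2 units. This gave a log2 fold change of 3.72 (standard error 0.36, 95% confidence interval 2.86 to 4.58, adjusted p = 0.0011 from limma), and only 51 of all 18769 probe sets rose by more. Its wild type mean, 5.16, was above those of only 44.6% of the probe sets, and no detection call was used, so the size of this fold depends on the background of the array. In wild type it was the dimmer of the Gfat1 probe sets (means of 5.16 and 5.94), and it was the brighter one only through the fkh arrays (8.88 and 6.71).

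The other probe set of Gfat1, dimmer over all 6 arrays, gave a much smaller difference in the same direction. It was at 5.75, 6.04 and 6.04 in wild type and at 6.88, 6.74 and 6.51 in fkh, and the groups again did not overlap. It rose by 0.77 on the log2 scale (standard error 0.13, adjusted p = 0.0083 from limma), or 1.70-fold. The RefSeq table lists 9 transcripts of Gfat1, and which of them each probe set reads was not analysed here. Averaged over both probe sets, Gfat1 was 4.74-fold higher (log2 fold change 2.25, adjusted p = 0.0013 from limma), so that the choice of probe set moves the value by more than any other setting tried.

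Gfat2, the second gene for the same enzyme, had a high level in both groups that differed by less than the spread between arrays. Its probe set was at 9.61, 9.49 and 9.51 in wild type and at 9.43, 9.36 and 9.79 in fkh. The fkh arrays lay on both sides of the wild type arrays, with replicate 3 the highest of all 6. The change was -0.01 in log2 units (standard error 0.12, 95% confidence interval -0.30 to 0.28, adjusted p = 0.97 from limma), an interval that spans 0.811-fold to 1.22-fold.

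The change of Gfat1 exceeded that of Gfat2 by 3.73 in log2 units for the brighter probe set of Gfat1 (standard error 0.60) and by 0.78 for the dimmer one (standard error 0.27). The 2 probe sets of Gfat1 differed from each other in their change by 2.96 (standard error 0.41). In each of these pairs the per-array differences of the fkh arrays lay above those of the wild type arrays. An exact two-sided permutation test over the 6 arrays gave p = 0.10 for each pair, the smallest value that 3 arrays against 3 allow, and this was also the adjusted value over the 4 pairs compared.

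The product of mmy, UDP-N-acetylglucosamine diphosphorylase, catalyses the last step before the synthase. The gene was among those that the study named for these arrays, so that its direction is not independent evidence. The study also reported chitin-related genes as enriched among those higher on these arrays, so no member gives evidence independent of it. Its probe set was at 8.41, 8.20 and 8.09 in wild type and at 8.72, 8.79 and 8.76 in fkh. The fkh arrays lay within 0.07 of each other and above all wild type arrays, which spanned 0.32. The rise was 0.53 in log2 units (standard error 0.10, 95% confidence interval 0.30 to 0.76, adjusted p = 0.012 from limma), just over the 1.4-fold minimum. It was no longer called when wild type replicate 2 or replicate 3 was left out, with log2 fold changes of 0.51 and 0.46 (adjusted p = 0.058 and 0.056 from limma).

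The chitin synthase genes went in opposite directions. The probe set of kkv, the ectodermal synthase gene, was at 6.21, 6.68 and 6.68 in wild type and at 9.05, 9.62 and 8.40 in fkh. All fkh arrays were above all wild type arrays, by at least 1.72, and fkh replicate 2 was the highest. Its log2 fold change was 2.50 (standard error 0.30, 95% confidence interval 1.79 to 3.21, adjusted p = 0.0024 from limma). The wild type mean of kkv, 6.53, was above those of 62.7% of the probe sets, so that, unlike for Gfat1 and knk, its wild type level was not in the lower part of the range.

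Chs2, the gut synthase gene, was at 6.79, 6.45 and 6.42 in wild type and at 5.30, 5.03 and 5.06 in fkh. All fkh arrays were lower than all wild type arrays, by at least 1.12, and the fkh arrays differed little among themselves. The log2 fold change was -1.42 (standard error 0.13, 95% confidence interval -1.73 to -1.12, adjusted p = 8.2e-04 from limma), and 89 probe sets fell by more. Since the fkh values were under the overall median of those arrays (5.42), a fall to background and a fall to a low level were not told apart. The change of kkv exceeded that of Chs2 by 3.92 in log2 units (standard error 0.46), with no overlap between the per-array differences of the groups. The exact two-sided permutation test over the 6 arrays gave p = 0.10, again the smallest possible.

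The product of knk is anchored at the cell surface and organizes and protects newly made chitin. Its probe set was at 4.94, 5.21 and 5.04 in wild type and at 7.58, 8.05 and 6.36 in fkh. The groups did not overlap, but the fkh arrays spread over 1.69 in log2 units, more than those of any other member. The rise was 2.27 in log2 units (standard error 0.39, 95% confidence interval 1.34 to 3.19, adjusted p = 0.0097 from limma). Leaving out fkh replicate 3 gave 2.75, and leaving out fkh replicate 2 gave 1.91. Wild type values were under the overall median (5.36), and this fold, too, depends on array background.

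The order of wild type levels was Gfat2 highest, then mmy, Chs2 and kkv together, and Gfat1 and knk lowest, though log2 values of different probe sets also depend on their probes and give no order of transcript amounts. For 3 of the 5 probe sets that rose (the brighter probe set of Gfat1, kkv and knk), fkh replicate 2 was the highest and replicate 3 the lowest of the fkh arrays. Between these 2 arrays the brighter probe set of Gfat1 differed by 1.55, kkv by 1.22 and knk by 1.69 in log2 units, whereas mmy differed by 0.04 and Chs2 by -0.04. Gfat2 went the other way, with replicate 2 below replicate 3 by 0.43.

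Among the lists followed beside the members, late ectoderm, muscle, maternal and chitin matrix assembly genes had medians in the same order of fkh replicates. So did the genes of the route from glucose to UDP-GlcNAc, whose medians differed little between the replicates. The 16 measured genes of late ectoderm differentiation (cuticle, Osiris and zona pellucida domain genes among them) lay at a median of 2.31, 3.05 and 1.13 above the wild type mean in fkh replicates 1, 2 and 3, and 8 of them were called higher and none lower, where 7.80% of all genes were called higher. The count was 13 after ribosomal protein scaling, 12 without fkh replicate 3 and 5 in the equal-variance test of each probe set alone. Among the others, the tanning enzyme genes ple and Ddc were at 4.55 ± 0.17 and 5.30 ± 0.37 in fkh (log2, SD, n = 3 arrays) and did not pass the test. The 6 measured muscle genes, all called higher, lay at medians of 5.09, 5.76 and 3.52 above wild type. The 15 measured maternal genes lay at medians of 0.11, 0.90 and -0.16, and none was called, against up to 2 called higher in other settings. The 18 measured chitin matrix assembly genes lay at medians of 1.79, 2.57 and 1.6, and the 9 measured route genes at -0.04, 0.02 and -0.09. This order was not followed by regulators of epidermis and trachea, with medians of 0.30, 0.06 and 0.11. Nor was it followed by genes listed for the gut primordia (-0.41, -0.67 and -0.56) or other users of UDP-GlcNAc (0.10, -0.06 and -0.23). The medians of the late ectoderm list ranged from 4.67 to 4.81 over the wild type arrays and from 7.17 to 9.79 over the fkh arrays, and those of the muscle list from 4.63 to 5.01 and from 8.14 to 10.22. The part of what moves these lists in the rises of Gfat1, kkv and knk was not tested. Nor was a difference in age between the collections, which the stage label alone does not settle. Without fkh replicate 3 their log2 fold changes were 4.12, 2.81 and 2.75, and without fkh replicate 2 they were 3.34, 2.20 and 1.91, called higher in each case.

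**Figure D2:**
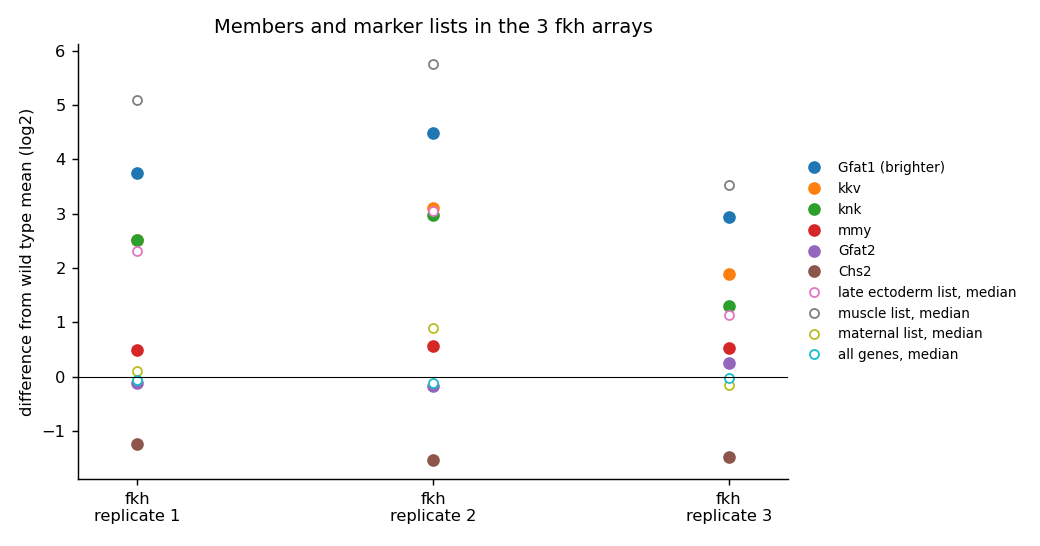
Difference of each of the 3 fkh arrays from the mean of the wild type arrays (log2, vertical axis) for 6 member probe sets (filled) and the medians of 3 marker lists and of all genes (open). For Gfat1, kkv, knk, the late ectoderm list and the muscle list, fkh replicate 2 is highest and replicate 3 lowest, while mmy lies at 0.49, 0.56 and 0.53.

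Of 6 measured genes that specify or pattern epidermis and trachea, none was called higher or lower by its brightest probe set, with a median log2 fold change of 0.17, where 15.7% of all genes were called. One gene, vvl, which encodes a POU domain transcription factor, had a second probe set that was called higher, with a log2 fold change of 0.57 (adjusted p = 0.043 from limma) against 0.42 (adjusted p = 0.12) in the brightest. When the probe sets of each gene were averaged, or with array weights, cyclic loess or ribosomal protein scaling, 1 of the 6 was called higher. Among them, grh, which encodes a transcription factor of cuticle-forming epithelia, averaged 11.07 (SD 0.01) over the 3 wild type arrays and 11.20 (SD 0.22) over the 3 fkh arrays, and the tracheal receptor gene btl averaged 8.55 (SD 0.17) and 8.85 (SD 0.26), all in log2 units. Their part in the rise of kkv was not tested.

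Of 8 measured genes listed for the gut primordia, 5 were called lower and 1 higher, with a median log2 fold change of -0.56. Of all genes, 7.89% were called lower and 7.80% higher. The list is not limited to gut, since the study also gives hkb as an early salivary gland factor. The count lower was 3 without wild type replicate 3, with cyclic loess and in the equal-variance test, and 2 after ribosomal protein scaling. Not called were cad (log2 fold change -0.16) and bin (-0.36), and the list medians ranged from 8.88 to 8.95 in wild type and from 8.61 to 9.0 in fkh. The defining endoderm gene GATAe was at 8.88, 8.94 and 8.89 in wild type and at 6.87, 6.43 and 6.29 in fkh, and the hindgut gene byn fell by 1.18 on the log2 scale (adjusted p = 0.0010 from limma). The gene that rose was tll, with a log2 fold change of 0.76 (adjusted p = 0.031 from limma), a call that was lost without wild type replicate 2, wild type replicate 3 or fkh replicate 1. The part of the gut primordia in the fall of Chs2 was not tested.

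Of 10 genes listed for the route from glucose to UDP-GlcNAc and its side steps, 9 were measured, and 1 was called higher and none lower, with a median log2 fold change of -0.01, where 15.7% of all genes were called. The one that rose was Gnpnat, whose product acetylates the glucosamine-6-phosphate that the Gfat enzymes make. Its brightest probe set was at 8.12, 8.35 and 8.15 in wild type and at 8.93, 9.29 and 9.37 in fkh, so that the fkh arrays were all higher (log2 fold change 0.99, standard error 0.13, adjusted p = 0.0037 from limma). Another probe set gave a log2 fold change of 0.94, and the last, dim in all arrays, one of 0.02. Steps before Gfat were not called: the hexokinase gene Hex-A differed by 0.59 in log2 units (standard error 0.28, adjusted p = 0.20 from limma), carried by fkh replicates 2 and 3, and the phosphoglucose isomerase gene Pgi by 0.03 (standard error 0.14). Oscillin, whose product turns glucosamine-6-phosphate back into fructose-6-phosphate, differed by -0.33 (standard error 0.11, adjusted p = 0.098 from limma). The mutase gene nst, between Gnpnat and mmy, shared its probe set with another gene and was not analysed here.

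Of 13 genes listed for other enzymes that use UDP-GlcNAc or handle the sugars made from it, 11 were measured, and 1 was called higher and 2 lower, with a median log2 fold change of -0.06, where 15.7% of all genes were called in either direction. The higher one was fng, a glycosyltransferase gene that modifies Notch, with means of 8.05 (SD 0.09, 3 wild type arrays) and 8.93 (SD 0.08, 3 fkh arrays) in log2 units. The lower ones were Oga, whose product removes O-linked GlcNAc from proteins, and Alg13, of the first steps of N-glycan assembly, with log2 fold changes of -0.63 and -0.53. Both calls were lost without any one of the wild type arrays and after both other scalings tried (cyclic loess and ribosomal protein genes). The O-GlcNAc transferase gene sxc differed by -0.10 in log2 units (standard error 0.10).

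Many genes that act on chitin during or after its synthesis were higher in fkh embryos. Of 18 measured genes, 13 were called higher and none lower, with a median log2 fold change of 1.93, where 7.80% of all genes were called higher. Earlier results of these data were known when the list was written, so that the count describes these genes and supports nothing further. The largest changes were in Gasp and obst-A, which encode chitin-binding proteins (5.32 and 4.43 in log2 units), and in slf, a lectin gene of the cuticle (4.67). The deacetylase gene serp (4.32) and the chitinase family gene Cht7 (3.88) followed. Wild type means of obst-A, slf and Cht7 (4.03, 5.07 and 4.76) were under the overall median (5.36), so these folds, too, depend on array background. Those of Gasp and serp were 5.52 and 5.89, with SDs of 0.85 and 0.83 over the wild type arrays. The genes exp and reb, whose products act with the kkv synthase in chitin deposition, rose by 2.22 and 1.03. For reb the wild type mean was low, at 4.41. For exp the values were 5.80, 5.86 and 5.75 in wild type and 8.15, 8.42 and 7.48 in fkh, with the same order of the fkh arrays as in kkv. These are values of its brightest probe set, and a second, dimmer one differed by -0.10 and was not called (adjusted p = 0.34 from limma). Not called were Cda5 (log2 fold change 0.80), Cda9 (-0.20), Idgf4 (0.57), Idgf6 (0.33) and Muc4B (-0.05).

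**Figure D3:**
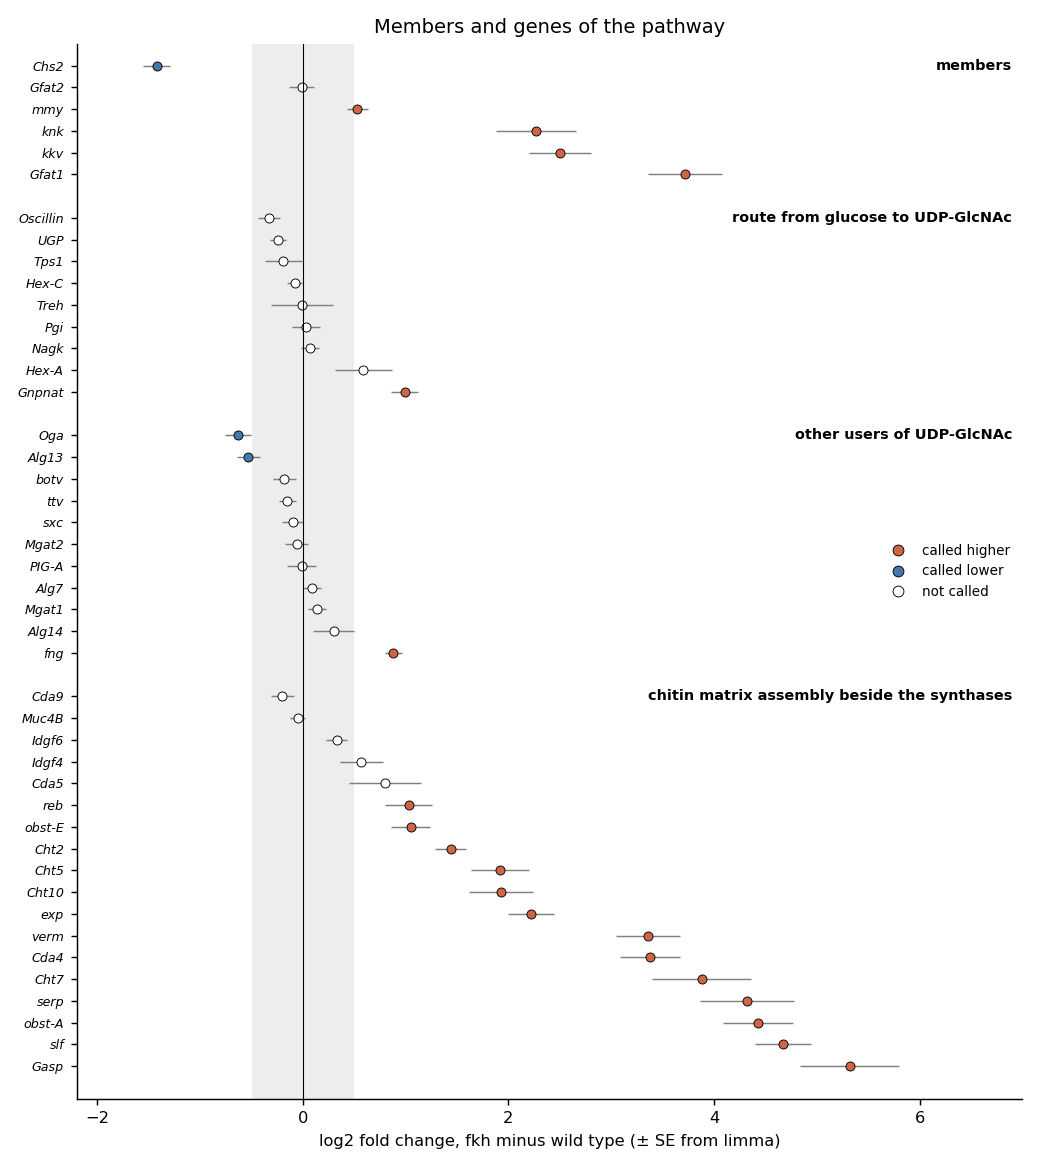
Log2 fold change between fkh and wild type (horizontal axis, bars are standard errors from limma, n = 3 arrays each) for the 6 measured members and the genes of 3 pathway lists, with the grey band marking changes under 1.4-fold. Filled points are called higher (orange) or lower (blue). The members run from -1.42 (Chs2) to 3.72 (brighter probe set of Gfat1), and 13 of 18 matrix assembly genes are called higher. The dimmer probe set of Gfat1, at 0.77, is not shown.

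Profiles most like those of the members were sought among 11976 other genes, by the root mean square difference of the centred log2 values over the 6 arrays. Nearest to kkv were lbm, a tetraspanin gene (0.109), CG6972 (0.151) and the chitinase family gene Cht6 (0.156). The values of lbm were 4.49, 5.01 and 4.75 in wild type and 7.32, 7.94 and 6.83 in fkh, with replicate 2 the highest array in both groups. Nearest to Chs2 were CG31751 (0.068), CG16888 (0.10) and the serpin gene Spn42Dc (0.111). CG31751 was at 8.42, 8.17 and 8.09 in wild type and at 7.11, 6.73 and 6.88 in fkh, and like Chs2 was highest in replicate 1 of each group. Nearest to mmy were CG17272 (0.065), Mtmr6, of the myotubularin phosphatase family (0.066), and LKRSDH, which encodes an enzyme of lysine breakdown (0.077). With 6 arrays in 2 groups this likeness rests mostly on the size of the group difference.

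By position, 4 of the 6 measured members lay on chromosome arm 3R, which also carries fkh, 1 on 3L (Chs2) and 1 on 2L (mmy). Arm 3R held 2974 of all 11982 genes. On it 7.20% of the genes were called higher and 10.2% lower. Over all genes these shares were 7.80% and 7.89%, or 15.7% in either direction. The nearest measured gene on either side of each member was not called in any of the 12 cases. The closest to a call were CG9536 beside mmy, with a log2 fold change of -0.44 (adjusted p = 0.032 from limma, under the fold minimum), and tws beside knk, with -0.41 (adjusted p = 0.062). Effects of sequence differences between the fkh[6] chromosome and that of Oregon R on single probe sets were not tested.

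Facts of the whole set bear on these values as follows. Median values were 5.36 in each wild type array and 5.38 to 5.45 in the fkh arrays. Probe sets had a median SD of 0.0751 over the wild type arrays and 0.146 over the fkh arrays, in log2 units. The fkh transcript, still made in the mutants, was 1.4-fold higher in fkh (means of 10.21 and 10.70, SD 0.08 and 0.11, log2, 3 arrays each), so that its level does not check the genotype. Precision is limited by the number of arrays throughout.

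The directions of the 5 called members held under each of 16 other settings. The fold of Gfat1 (brighter probe set) ranged from 10.1 to 17.4, that of kkv from 4.59 to 7.01 and that of knk from 3.76 to 6.73, and the log2 fold change of Chs2 from -1.51 to -1.26. The calls of Gfat1 (brighter probe set), kkv and Chs2 were kept in all 16, that of knk in 15 and that of mmy in 12, with log2 fold changes of mmy between 0.46 and 0.69.

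**Figure D4:**
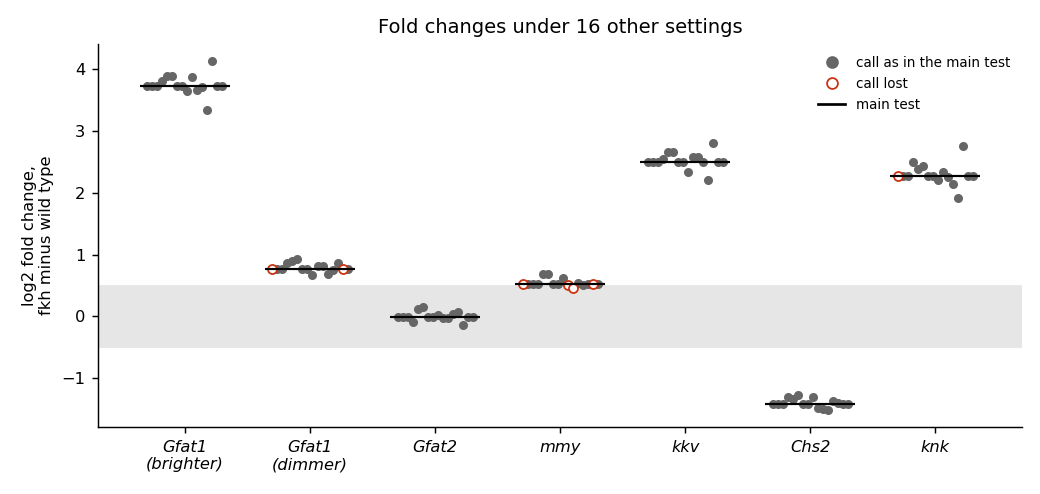
Log2 fold changes between fkh and wild type (vertical axis) of the 7 member probe sets in the main test (black lines) and under 16 other settings (points), with the grey band marking changes under 1.4-fold. Open red points have lost their call, in the dimmer probe set of Gfat1, in mmy and in knk.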

How the data were processed

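Whole stage 11 embryos were measured on Affymetrix Drosophila Genome 2.0 arrays, 3 wild type and 3 fkh[6]. The authors deposited log2 values made with RMA in Partek, with versions not given in the sources used here. Probe sets were named with an array annotation, and the names were updated through the RefSeq gene table of Release 6 of the *Drosophila* genome: 13647 named 1 gene, 402 several and 4720 none. Of the rows with several genes or none, all entered the fit and none a gene value. The comparison used lmFit and eBayes of limma 3.58.1, run in R 4.3.3, over all 6 arrays without covariates, with Benjamini-Hochberg adjustment over 18769 probe sets. No value was filtered out. This step was tested on simulated data with known changes. Tables were made with Python 3.11.15 and pandas 2.3.3.

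The members, lists and tests were chosen with earlier results of these data known. The genes named were all 7 members, the called genes of each pathway list (values for up to 5 with the largest change), defining genes of marker lists, and for kkv, Chs2 and mmy the 3 genes of nearest profile. Other pathway genes with values, the genes beside members, and reb and exp were chosen after their values were seen. Pairs of members were compared by an exact permutation test over arrays. Alternatives were an equal-variance test of each probe set alone, limma with an intensity trend or array weights, cyclic loess, ribosomal protein scaling, leaving out the dimmest probe sets, a replicate block, leaving out each array, other fold minimums and the mean of probe sets. No sequence was printed, and the in situ data of the study were not used.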

Additional observations from a re-analysis of the deposited data

How the results depend on the processing

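For the 7 member probe sets, 105 of 112 values under the alternatives kept their direction and their side of the threshold, 7 lost the call and none reversed. In the equal-variance test of each probe set alone, the dimmer probe set of Gfat1 (log2 fold change 0.77, adjusted p = 0.064), mmy (0.53, adjusted p = 0.061) and knk (2.27, adjusted p = 0.086) lost the call, so that 2 member genes were called higher, with 406 probe sets higher and 538 lower in all. At a fold minimum of 2, mmy (0.53) and the dimmer probe set of Gfat1 (0.77) lost it by construction, and 683 probe sets were higher and 264 lower, against 1162 and 1151 in the main test. With no fold minimum 1795 were lower. Leaving out 1 array gave log2 fold changes of 0.46 to 0.62 for mmy, 668 to 1522 probe sets higher and 705 to 1355 lower, 1 to 2 route genes higher and 0 to 2 of the other UDP-GlcNAc genes lower. At a fold minimum of 2 the route and the other UDP-GlcNAc genes had 0 higher and the latter 0 lower. The latter also had 0 lower in the equal-variance test and after either other scaling. Scaling moved the median of all probe sets from -0.08 to 0.01 (cyclic loess, 690 lower, 65.3% of calls higher) or 0.09 (ribosomal protein scaling, 1753 higher and 622 lower, 73.8% higher, against 50.2%). Causes were not tested.

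The replicate numbers gave no pairing: same-numbered arrays had deviations from their group means that correlated at 0.072, 0.0727 and -0.0785. With the replicate block, 1168 probe sets were higher and 1069 lower, the log2 fold change of mmy was 0.53 (adjusted p = 0.033 from limma), and no call of a member changed. Low signal limits Gfat1 and knk in wild type and Chs2 in fkh. It also limits obst-A, slf, Cht7 and reb of the matrix assembly genes in wild type.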
